A study of Microtus ochrogaster with 40 samples.

Results

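The genes described here are 8 genes chosen by their level per animal, which differed between animals in the same way in many kinds of nucleus: Zfp558, Tmem141, Rsrp1, Ddx17 and 4 genes that the files list by identifier alone, ENSMOCG00000004642, ENSMOCG00000019475, ENSMOCG00000020926 and ENSMOCG00000000471. All 8 were found among the 19130 genes of the files, and all 8 passed the filter on low counts that left 13705 genes for testing. Their identifiers are ENSMOCG00000018648 for Zfp558, ENSMOCG00000014898 for Tmem141, ENSMOCG00000000654 for Rsrp1 and ENSMOCG00000010769 for Ddx17. The variation between animals and its likeness across classes were what chose the genes, so these values are given as a description with no test. Nuclear RNA was measured in single nuclei of 40 prairie voles (Microtus ochrogaster), with 1 animal per library, in punches of the nucleus accumbens. This region of the ventral striatum handles reward, and its signalling has been tied to the lasting pair bonds that these voles form. The labels name no strain, genotype or age. Before tissue was taken, each animal had lived for 16 days either with a mate of the opposite sex or with an unfamiliar peer of its own sex. The groups were 11 females with a mate, 8 females with a peer, 11 males with a mate and 10 males with a peer. No group lived alone, so the peer animals are the comparison for the mate animals.

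Zfp558 is named as a member of the zinc finger protein family, a large family of DNA-binding proteins many of which repress transcription. Ddx17 encodes a DEAD-box RNA helicase that acts in splicing and in the processing of microRNA precursors together with its close relative Ddx5. Rsrp1 encodes a protein rich in arginine and serine, a composition shared with splicing regulators. Tmem141 encodes a small membrane protein. What the 4 genes without a symbol encode is not given in the files. RNA counted in nuclei includes unspliced RNA still being processed, the step at which splicing proteins and RNA helicases act.

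After filters, 177991 nuclei with 318959697 UMIs (unique molecular identifiers, 1 per captured RNA molecule) were kept, between 2912277 and 13056351 UMIs per library with a median of 8224755. The library of male mate 2 was the shallowest, with 645 UMIs per nucleus (median), followed by female peer 1 with 913, and the deepest had 2132. Libraries shared at most 2.22% of their cell barcodes. Nuclei fell into 29 clusters, of which 25 were named from markers into 14 classes, 8 of them neuronal. A class name below means nuclei like that type. The 4 unnamed clusters held 7.44% of nuclei. The share of neurons given below counts nuclei of the 8 neuronal classes among all kept nuclei. Unnamed nuclei therefore count as not neuronal, among them clusters 9 (7679 nuclei) and 23 (2529 nuclei), which scored highest on neuron marker lists. Medium spiny neuron markers were found in every animal, such as Ppp1r1b, the phosphoprotein DARPP-32, at 472 to 1671 CPM with a median of 862. CPM is the UMIs of a gene as a share of all UMIs of the animal, scaled to 1e6. The class of glutamate neurons held 30167 nuclei, beside 29989 in the D1 and 31879 in the D2 medium spiny class. Whether the punches also held neighbouring tissue was not tested. Of the glutamate nuclei, cluster 19 drew 63.0% from 1 animal, and cluster 25 of the cholinergic class was also led by Pvalb, Sst and Npy.

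Zfp558 was present or nearly absent, with nothing in between. Over all nuclei, 9 of the 40 animals held between 0 and 0.137 CPM and the other 31 held between 24.2 and 91.0 CPM. The 9 animals together gave 3 Zfp558 UMIs among 77987935: 6 animals had none and 3 animals had 1 UMI each. A count of 0 in those 6 libraries allows up to 0.321 to 0.466 CPM, depending on depth. These limits use 3 UMIs per library and cover counting error only.

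The animals with almost no Zfp558 were female mates 5, 9, 10 and 11, female peers 4 and 7, male mates 4 and 7 and male peer 4, so they came from all 4 groups. Female mates ranged from 0 to 72.5 CPM with a median of 34.8, and female peers from 0 to 65.7 CPM with a median of 40.0. Male mates ranged from 0 to 91.0 CPM with a median of 44.9, and male peers from 0.101 to 84.4 CPM with a median of 37.5. Each group held animals near 0 and animals above 60 CPM, and the 4 ranges overlapped almost fully. The count of 9 animals was the same when an animal counted as low at 5%, 10% or 25% of the highest animal. The SD of log2(CPM + 1) over animals was 2.36, the highest of all 13705 genes tested, whose median was 0.27. In 9 couples of consecutive library numbers 1 animal lacked Zfp558 and the other did not, in 11 couples neither lacked it, and in 0 couples both lacked it.

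**Figure D1:**
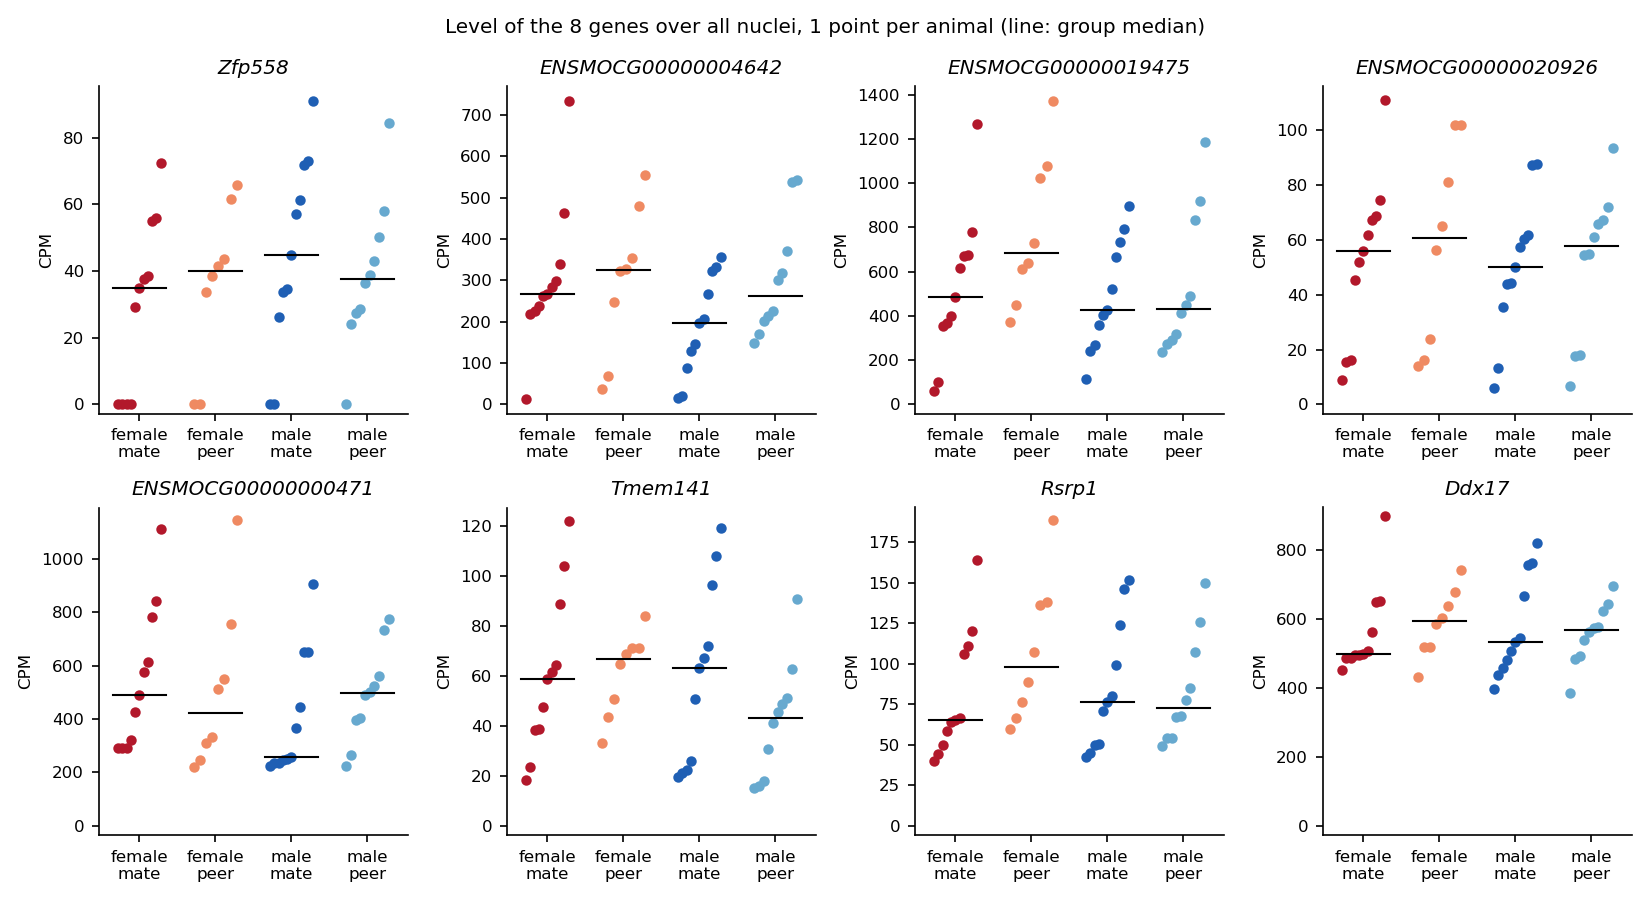
Each panel shows the CPM of 1 gene over all nuclei on the vertical axis, from 0, for the 4 groups on the horizontal axis, with 1 point per animal and a line at the group median. Zfp558 has 9 animals at the bottom of its panel, between 0 and 0.137 CPM, spread over all 4 groups, while Ddx17 spans only 385 to 897 CPM.

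The absence of Zfp558 held in every class where it could be seen. Class by class, an animal was read only where at least 10 UMIs of the gene would be expected from the class depth at the level of the animals that had it. There, the 9 animals were low in 71 of 71 combinations of animal and class, and the other 31 animals were low in 2 of 221. In D1 medium spiny neurons, which carry the dopamine receptor Drd1, the 9 animals reached at most 0.461 CPM and the other animals ranged from 19.3 to 86.1 CPM. In astrocytes, which support synapses and take up transmitter, the 9 animals were at 0 and the 30 others with enough nuclei ranged from 8.04 to 99.1 CPM. The class medians over all animals ran from 8.95 CPM in vascular nuclei to 70.1 CPM in oligodendrocyte precursors. Over 78 pairs of classes, the median Spearman correlation of Zfp558 across animals was 0.75, as a description over points that share a library.

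**Figure D2:**
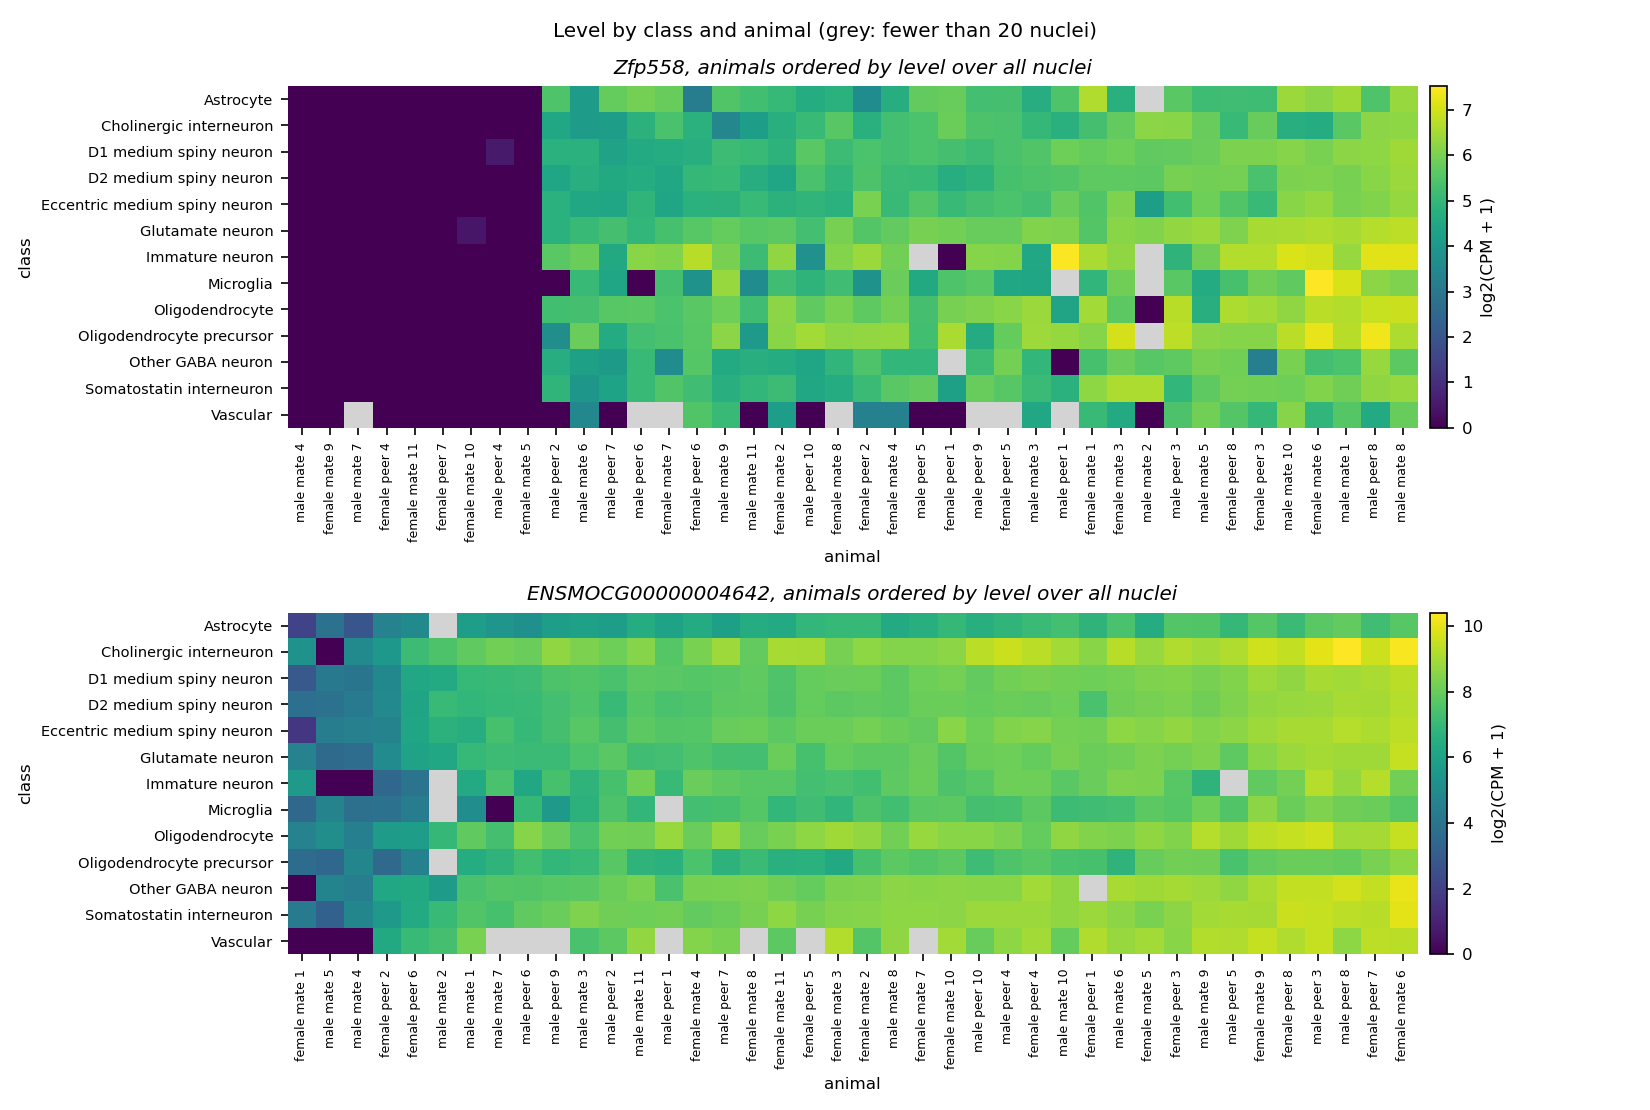
Rows are classes and columns are animals ordered by their level over all nuclei, the colour is log2(CPM + 1), and grey marks fewer than 20 nuclei. Zfp558 forms a block of 9 animals at or near 0 in every class, and ENSMOCG00000004642 has 5 low animals at the left followed by a gradual rise.

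ENSMOCG00000004642, a gene without a symbol, was low in 5 animals but not absent. It ran from 12.2 CPM in female mate 1 to 734 CPM in female mate 6, with a median of 264 CPM. Female mate 1 (12.2 CPM), male mate 5 (15.5), male mate 4 (19.2), female peer 2 (37.2) and female peer 6 (69.6) lay at or under 10% of the highest animal. The next animal was male mate 2 at 89.2 CPM, so the low animals were not set off by a gap as those of Zfp558 were. The 5 animals held 1215 UMIs of the gene in all. In D1 medium spiny neurons they ranged from 6.58 to 75.4 CPM and the other 35 from 81.1 to 647 CPM. In oligodendrocyte precursors they ranged from 10.6 to 26.5 CPM, on 8 UMIs in all, and the others from 79.3 to 396 CPM. The ranges overlapped in other GABA neurons (up to 79.6 CPM against 52.7 or more) and in microglia (up to 24.0 against 0 or more). Over classes, the 5 animals were low in 54 of 61 readable combinations and the other animals in 2 of 419. Astrocytes had the lowest class median, 90.8 CPM, and vascular nuclei the highest, 398 CPM.

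ENSMOCG00000019475, also without a symbol, ran from 62.4 to 1373 CPM with a median of 488. Female mate 11 (62.4 CPM), female mate 2 (101) and male mate 6 (116) were low, and all other animals held 238 CPM or more. They were low in 34 of 39 readable combinations with a class, against 1 of 457 for the other animals. In D2 medium spiny neurons, which carry Drd2, the 3 ranged from 43.7 to 102 CPM and the others from 220 to 1113 CPM. In microglia, the immune cells of the brain, the ranges were 18.3 to 67.3 CPM, on 11 UMIs in all, and 68.1 to 617 CPM. In vascular nuclei the ranges overlapped, at 83.9 to 143 CPM and 108 to 1301 CPM.

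ENSMOCG00000020926 ran from 6.13 to 111 CPM with a median of 56.2. Male mate 3 (6.13 CPM), male peer 2 (6.64) and female mate 11 (9.03) were low, followed closely by male mate 8 at 13.2 CPM and female peer 8 at 14.2 CPM. A wider gap lay between 23.7 and 35.7 CPM, with 11 animals below it, and the same number, 11, lay under 25% of the highest animal. The lower 3 were low in 23 of 25 readable combinations with a class, the other animals in 9 of 297. This gene was strongest in vascular nuclei, with a median of 179 CPM, against 31.7 to 71.9 CPM in the other 12 classes.

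The low animals differed from gene to gene. With low meaning at or under 10% of the highest animal, of the 40 animals 23 were low in none of the 8 genes, 15 in 1, male mate 4 in 2 (Zfp558 and ENSMOCG00000004642) and female mate 11 in 3 (Zfp558, ENSMOCG00000019475 and ENSMOCG00000020926). This tally depends on the limit: the 20 low values of gene and animal became 62 at 25% of the highest, with 9 for Zfp558, 10 for ENSMOCG00000004642, 9 for ENSMOCG00000019475, 11 for ENSMOCG00000020926, 10 for ENSMOCG00000000471, 9 for Tmem141, 4 for Rsrp1 and 0 for Ddx17. For Zfp558, the median UMIs per nucleus were 1386 to 1964 in the low animals and 645 to 2132 in the rest, and the share of neurons was 62.3% to 71.1% against 52.5% to 79.7%. The low animals of the other 3 genes lay within the range of the rest in depth, number of nuclei, mitochondrial share and share of neurons, with 2 exceptions. Among those of ENSMOCG00000020926, depth reached 2132 UMIs per nucleus in male mate 3, the deepest library, against at most 1964 in the rest. Among those of ENSMOCG00000004642, mitochondrial share reached 0.948%, the highest of all, against at most 0.930% in the rest. The part of these measures in the low levels was not tested.

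The other 4 genes had no animal at or under 10% of the highest. ENSMOCG00000000471 ran from 221 CPM in female peer 4 to 1146 CPM in female peer 2 with a median of 436, and in cholinergic nuclei, the class with its highest median, it ran from 285 to 2597 CPM. Tmem141 ran from 15.0 CPM in male peer 8 to 122 CPM in female mate 1 with a median of 51.0. Its level was highest in astrocytes, with a median of 147 CPM and a range of 14.4 to 324. Rsrp1 ran from 40.3 CPM in female mate 9 to 189 CPM in female peer 3 with a median of 76.4, and was highest in microglia, with a median of 292 CPM and a range of 82.3 to 600. These 3 genes formed a continuous series of animals with no step larger than 1.23-fold between neighbours.

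Ddx17 went against the description by which it was chosen. It ran only from 385 to 897 CPM with a median of 541, its SD of log2(CPM + 1) was 0.28, and 6119 of 13705 genes had a larger SD. The SDs of the other 7 genes ran from 0.61 for Rsrp1 to 2.36 for Zfp558, all above the 95th percentile of all genes, 0.59. What Ddx17 shared with the others was the likeness between classes. Ddx17 was highest in astrocytes, with a median of 950 CPM, and lowest in vascular nuclei, with a median of 406 CPM.

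Neurons and glia of the same animal followed each other for all 8 genes. Glia of male mate 2 held only 52496 UMIs, too few to read genes of low level such as Zfp558. Spearman's rho between the level in neurons and the level in glia over the 40 animals was 0.78 for Zfp558, 0.94 for ENSMOCG00000004642, 0.94 for ENSMOCG00000019475 and 0.84 for ENSMOCG00000020926. It was 0.89 for ENSMOCG00000000471, 0.96 for Tmem141, 0.87 for Rsrp1 and 0.84 for Ddx17. For Tmem141 no gene had a higher value. Over the 78 pairs of single classes the median rho was 0.83 for ENSMOCG00000004642, 0.88 for ENSMOCG00000019475, 0.71 for ENSMOCG00000020926 and 0.82 for ENSMOCG00000000471. It was 0.65 for Tmem141, 0.67 for Rsrp1 and 0.65 for Ddx17, with the lowest pair at -0.25 for Tmem141 between immature neurons and vascular nuclei. Over 8892 genes with at least 10 CPM in both, the median rho was 0.38 and the 95th percentile 0.71. The 2 levels of an animal come from 1 library, and the rule used this likeness, so no p is given.

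Free RNA in the droplets can carry a gene's UMIs from one class to another, so levels in glia were set beside those of neuron markers. Summed over animals, the glial level of the 8 genes was 51.4% to 193% of the neuronal level. For 6 general neuron markers it was 6.33% to 23.9% (median 16.8%), and all 8 members lay above these 6. The 7 markers of D1 neurons ran from 5.38% to 2026% (median 9.00%) and the 8 of D2 neurons from 5.72% to 57.1% (median 10.1%). Of these, Ptprm (57.1%), Sfxn1 (87.9%) and Eya1 (2026%) lay above ENSMOCG00000000471 (51.4%) and ENSMOCG00000019475 (52.7%), the lowest members. In the other direction, the neuronal level was 0.381% to 1.31% of the glial level for 8 oligodendrocyte markers and 0.637% to 8.98% for 8 astrocyte markers, against 51.7% to 195% for the members. The part of free RNA in the likeness of neurons and glia was not tested.

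**Figure D3:**
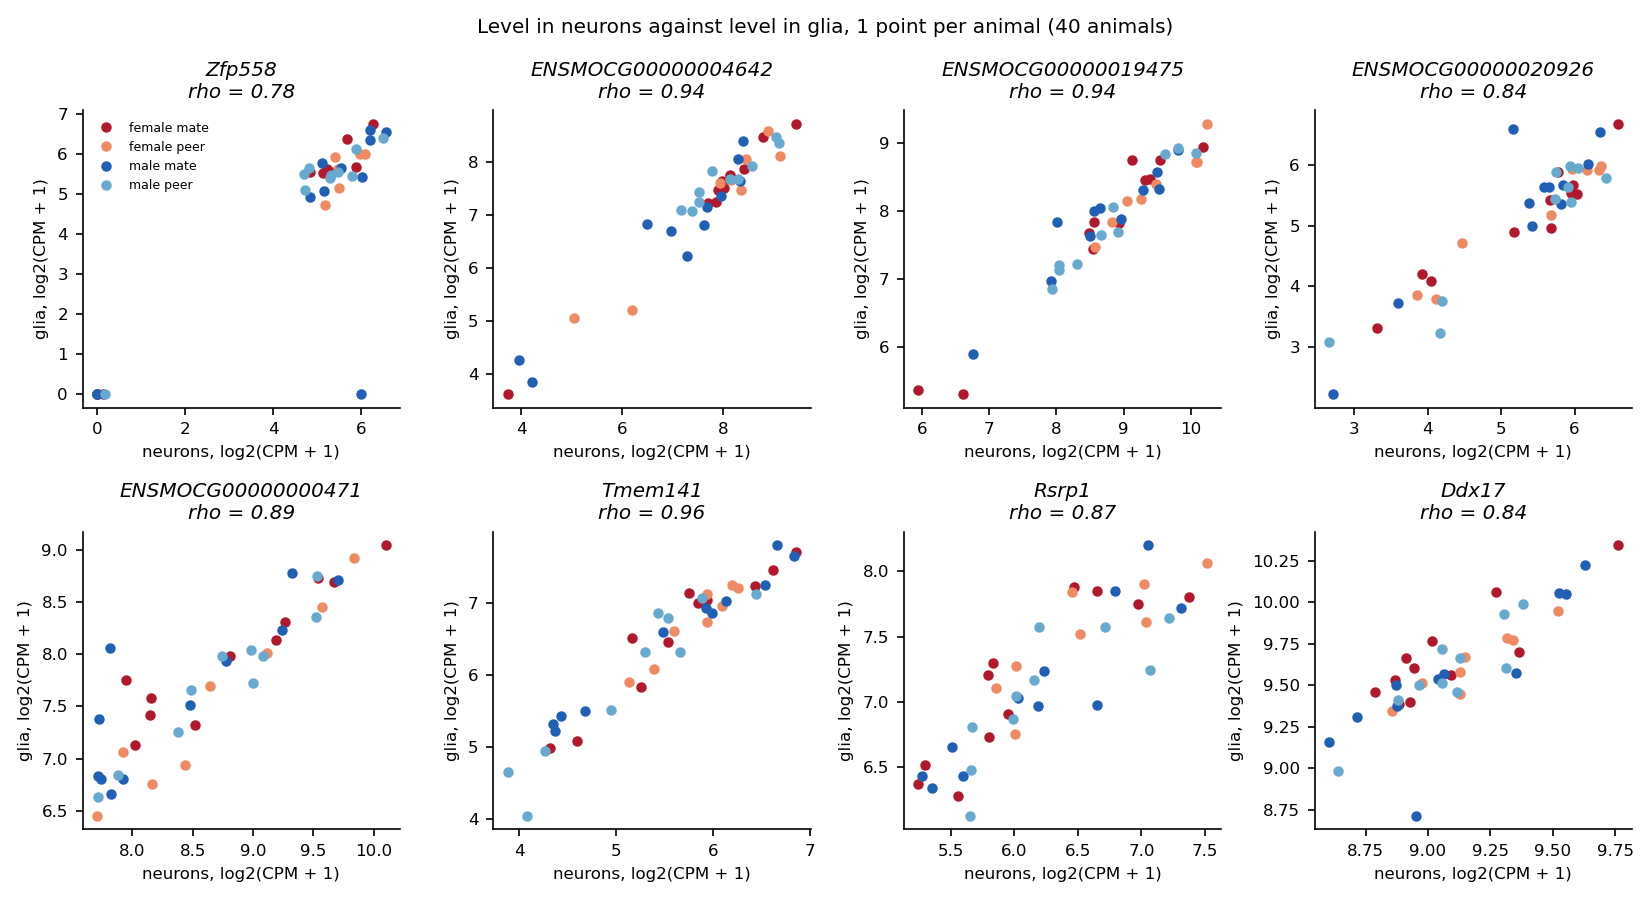
Each panel plots log2(CPM + 1) in glia (vertical axis) against neurons (horizontal axis) for 1 gene, with 1 point per animal coloured by group and Spearman's rho in the title. Points follow a rising line in all 8 panels, with rho from 0.78 to 0.96, and Zfp558 has its 9 low animals in the corner near 0. Male mate 2 lies off the line for Zfp558, at 62.5 CPM in neurons and 0 in glia, where its glia held only 52496 UMIs in all.

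The 8 genes did not vary together. Among the 28 pairs, rho across the 40 animals ran from -0.38 for Zfp558 with ENSMOCG00000000471 to 0.48 for Rsrp1 with Ddx17, with a median of -0.01, and 0 pairs exceeded 0.5. Without male mate 2, the shallowest library, Rsrp1 with Ddx17 reached 0.52, so that 1 pair exceeded 0.5. The sign was the same in neurons and in glia for 26 of 28 pairs. The highest pair joined the 2 genes with a role or composition related to splicing, and its rho was 0.46 in neurons and 0.58 in glia. ENSMOCG00000000471 was opposed to ENSMOCG00000019475 (rho -0.35 over all nuclei, -0.39 in neurons and -0.53 in glia) and to Ddx17 (-0.37, -0.37 and -0.46). These are descriptions, since all values of an animal share its library.

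**Figure D4:**
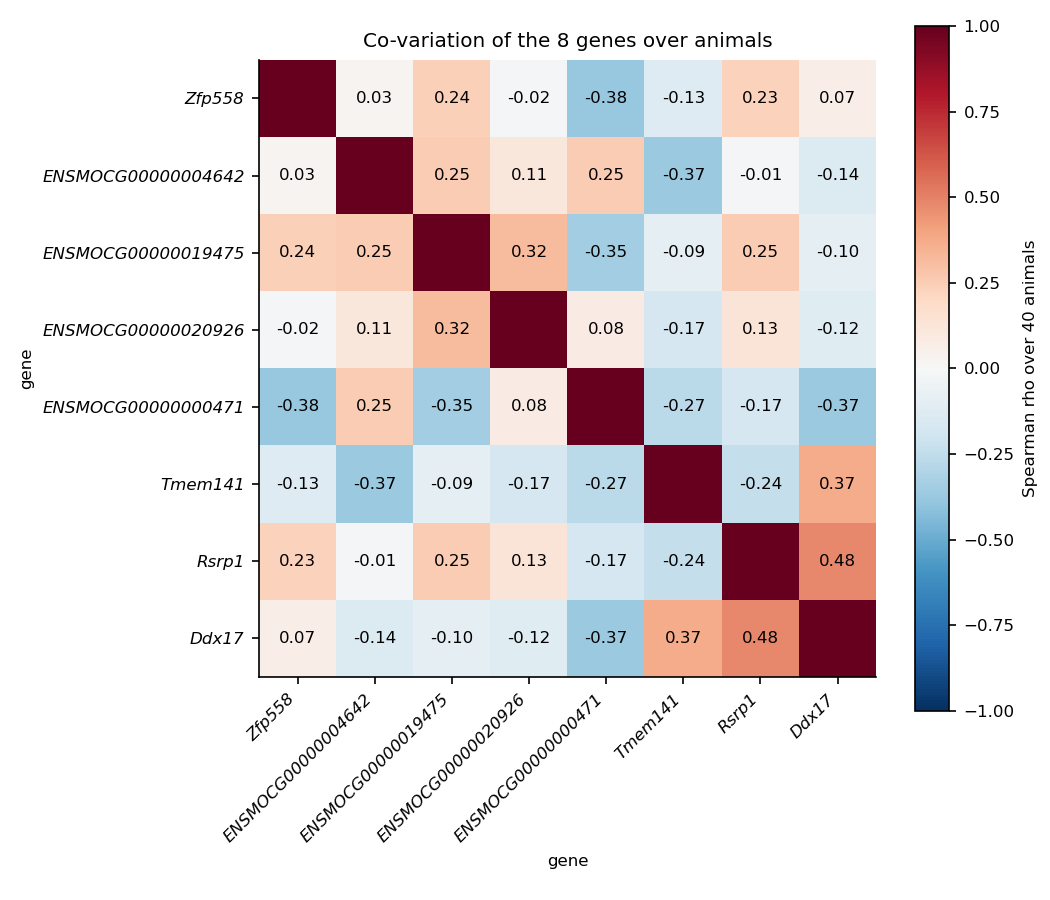
Each cell gives Spearman's rho between the levels of 2 genes over 40 animals, on a scale from -1 (blue) to 1 (red). The 28 values stay between -0.38 and 0.48.

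Of all genes tested, the 3 whose levels over animals were most like each member were named. For Tmem141 the most alike was ENSMOCG00000016398, with rho 0.91 over all nuclei, 0.89 in neurons and 0.86 in glia. That gene ran from 2.06 to 30.6 CPM over animals, and whether the 2 genes share reads was not tested. For Ddx17 the most alike were Atp9b, a membrane ATPase of the lipid flippase family (0.89), ENSMOCG00000018898 (0.85) and Guf1, a mitochondrial translation factor (0.84). For ENSMOCG00000019475 they were Rpl30, a ribosomal protein (0.78), Snrpd2, a core protein of the spliceosome (0.77), and Uqcc2, an assembly factor of the respiratory chain (0.76), but in glia alone rho was 0.39, 0.31 and 0.17. Male mate 2, the shallowest library, had the lowest level of all 3.

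For the other 5 genes, the 3 most alike had rho between 0.60 and 0.68. They were Klhl25, Olfm2 and Gm1110 for Zfp558, and Unc119, Atic and Gad1, the enzyme that makes GABA, for ENSMOCG00000004642. They were Fam98c, ENSMOCG00000010762 and Phospho1 for ENSMOCG00000020926, and ENSMOCG00000014859, Acly, which makes acetyl-CoA for lipid synthesis, and Elp3 for ENSMOCG00000000471. For Rsrp1 they were Rad54l, Tfcp2 and Cd37. In glia alone, the rho of these genes with their members ran from 0.03 for Fam98c to 0.58 for Olfm2. Gm1110 and Phospho1 were of low level, with medians of 0.433 and 0.855 CPM. All were picked as the highest of 13705 genes, so their rho is high by selection. After ENSMOCG00000016398, Tmem141 was followed by Phf21a (0.66) and Rbms1 (0.64).

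Splicing genes were set beside Ddx17 and Rsrp1 from a list of 43, of which 30 were in the files and tested. The list was chosen with earlier results of these data known. The rule used the levels of the members, so the rho values with them are a description. Their median rho with Ddx17 was 0.51, with 16 of 30 above 0.5, led by the helicase Ddx46 at 0.83. Over all genes tested the median rho with Ddx17 was 0.11 and 7.28% exceeded 0.5. Mitochondrial share of UMIs stands beside this: 18 of the 30 genes were lower where it was higher (median rho -0.45 over the list, permutation test adjusted over all genes), and Ddx17 had rho -0.35 (adjusted p = 0.0873) and r -0.43 (adjusted p = 0.0271) with it by permutation. Of all 13705 genes, 1675 were lower with that share by rho and 1424 higher (22.6% in all), with a median rho of -0.03. By r, 3806 were related to it. When library sizes were adjusted by TMM, 1381 were lower and 1630 higher. The part of mitochondrial share in the likeness was not tested. With Rsrp1 the list had a median of 0.07 and 1 gene above 0.5, Luc7l at 0.59, where 0.628% of all genes exceeded 0.5. With the other members the list's median was 0.25 for Tmem141, 0.08 for Zfp558, -0.12 for ENSMOCG00000020926, -0.27 for ENSMOCG00000000471, -0.33 for ENSMOCG00000004642 and -0.34 for ENSMOCG00000019475. With ENSMOCG00000019475, 5 of 30 lay under -0.5, as did 3.57% of all genes. For Zfp558, a zinc finger list held every other gene whose symbol starts with Zfp, with Trim28 and Setdb1 added. Its 223 tested genes had a median rho with Zfp558 of 0.01 and 0 above 0.5, with a range from -0.42 for Zfp385b to 0.45 for Zfp763. Over all genes the median was 0.02 and 0.168% exceeded 0.5, so the count does not set these genes apart.

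Housing with a mate or a peer was not used to choose the genes and could be tested. None of the 8 genes was called for pairing over all nuclei, where 0% of all genes passed an adjusted p of 0.05. The test was edgeR's quasi-likelihood test on UMIs summed per animal, with Benjamini-Hochberg adjustment over 13705 genes. Unadjusted, 0 of 8 members and 6.60% of all genes had a p under 0.05, and DESeq2 called 0 members. The largest difference, that of ENSMOCG00000019475, was -0.36 ± 0.27 (log2 mate over peer ± SE, adjusted p = 0.770), from means of 509 CPM in 22 mate animals and 649 CPM in 18 peer animals. That of Zfp558 was -0.04 ± 0.53 (adjusted p = 0.991), from means of 37.2 and 37.5 CPM. Both differences were within the spread between animals. With an SE of 0.53, a difference of that size in Zfp558 could go uncalled. For Ddx17, the least variable member, the difference was -0.01 ± 0.08 (adjusted p = 0.979).

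No difference between females and males was called in any of the 8 genes by the same edgeR test, where 0.0219% of all genes passed. Unadjusted, 0 of 8 members and 8.08% of all genes had a p under 0.05, and DESeq2 called 0 members. Zfp558 had the largest difference, -0.38 ± 0.53 (log2 female over male ± SE, adjusted p = 0.843), with means of 32.0 CPM in 19 females and 42.1 CPM in 21 males. With the couple as a block, where mate couples alone carry the sex difference, it was -1.03 (adjusted p = 0.904). The difference of pairing between the sexes was called for 0 of 8 genes by edgeR and by DESeq2, with 0 of 8 members and 2.00% of all genes under 0.05 unadjusted and 0% of all genes called. Within 13 classes, the 8 genes gave 91 combinations of gene and class. Pairing was called in 0 of them (0% of all combinations) and sex in 0 (0.0220% of all combinations), with 0 called by DESeq2 in each. Unadjusted, 1 of 91 had a p under 0.05 for pairing (4.87% of all combinations) and 1 of 91 for sex (5.10%). The lowest unadjusted p for pairing was that of ENSMOCG00000019475 in cholinergic interneurons, at -0.54 ± 0.24 (adjusted p = 0.961).

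Consecutive library numbers (1 and 2, 3 and 4, and on) held animals of the same pairing type, of opposite sex for mates and of the same sex for peers, in all 20 cases. The labels do not name partners, so living together, handling order and library preparation cannot be told apart in these couples. Over all nuclei, 0 of 8 genes were called as differing between couples beyond the spread within them (edgeR F-test, where 2.09% of all genes passed). Unadjusted, 2 of 8 had a p under 0.05 by that test, against 23.0% of all genes. DESeq2's likelihood-ratio test called 1 of 8, Ddx17, with an adjusted p of 2.04e-05, and also called 2968 of 13705 genes.

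Ddx17 had the most alike couples of the 8. The intraclass correlation within couples was taken on log2(CPM + 1) as deviations from the mean of an animal's group. It is 1 when the animals of every couple deviate equally, and near 0 when they differ as much as animals of different couples. For Ddx17 it was 0.50, where the median over all genes was 0.13 and the 95th percentile 0.53. Its levels within a couple differed by 1.12-fold (median), from 1.01-fold in libraries 27 and 28 (452 and 457 CPM) to 1.62-fold in libraries 5 and 6 (622 and 385 CPM). Libraries 1 and 2 were the 2 highest of all, at 897 and 819 CPM. The edgeR F-test gave F = 3.84 and an adjusted p of 0.0544, just above the threshold, and 0.0486 without the filter on low counts. Exchanging animals between couples of the same kind in a one-sided permutation test gave p = 0.00783 and, over all 13705 genes, an adjusted p of 0.110. That test called 0 of 8 members and 1.78% of all genes, with 1 of 8 members and 22.8% of all genes under 0.05 unadjusted.

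The other 7 genes had intraclass correlations between -0.33 (Zfp558) and 0.19 (ENSMOCG00000000471), inside or just below the span of -0.29 to 0.53 that held the middle 90% of all genes. For ENSMOCG00000004642 the 2 animals of a couple differed by up to 21.8-fold, 339 against 15.5 CPM in libraries 13 and 14, and for ENSMOCG00000020926 by up to 11.0-fold, 67.3 against 6.13 CPM in libraries 7 and 8. ENSMOCG00000019475 differed by up to 10.9-fold, 1268 against 116 CPM in libraries 15 and 16. Tmem141 ranged from 1.02-fold in libraries 1 and 2 (122 and 119 CPM) to 6.05-fold in libraries 35 and 36 (90.7 and 15.0 CPM).

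**Figure D5:**
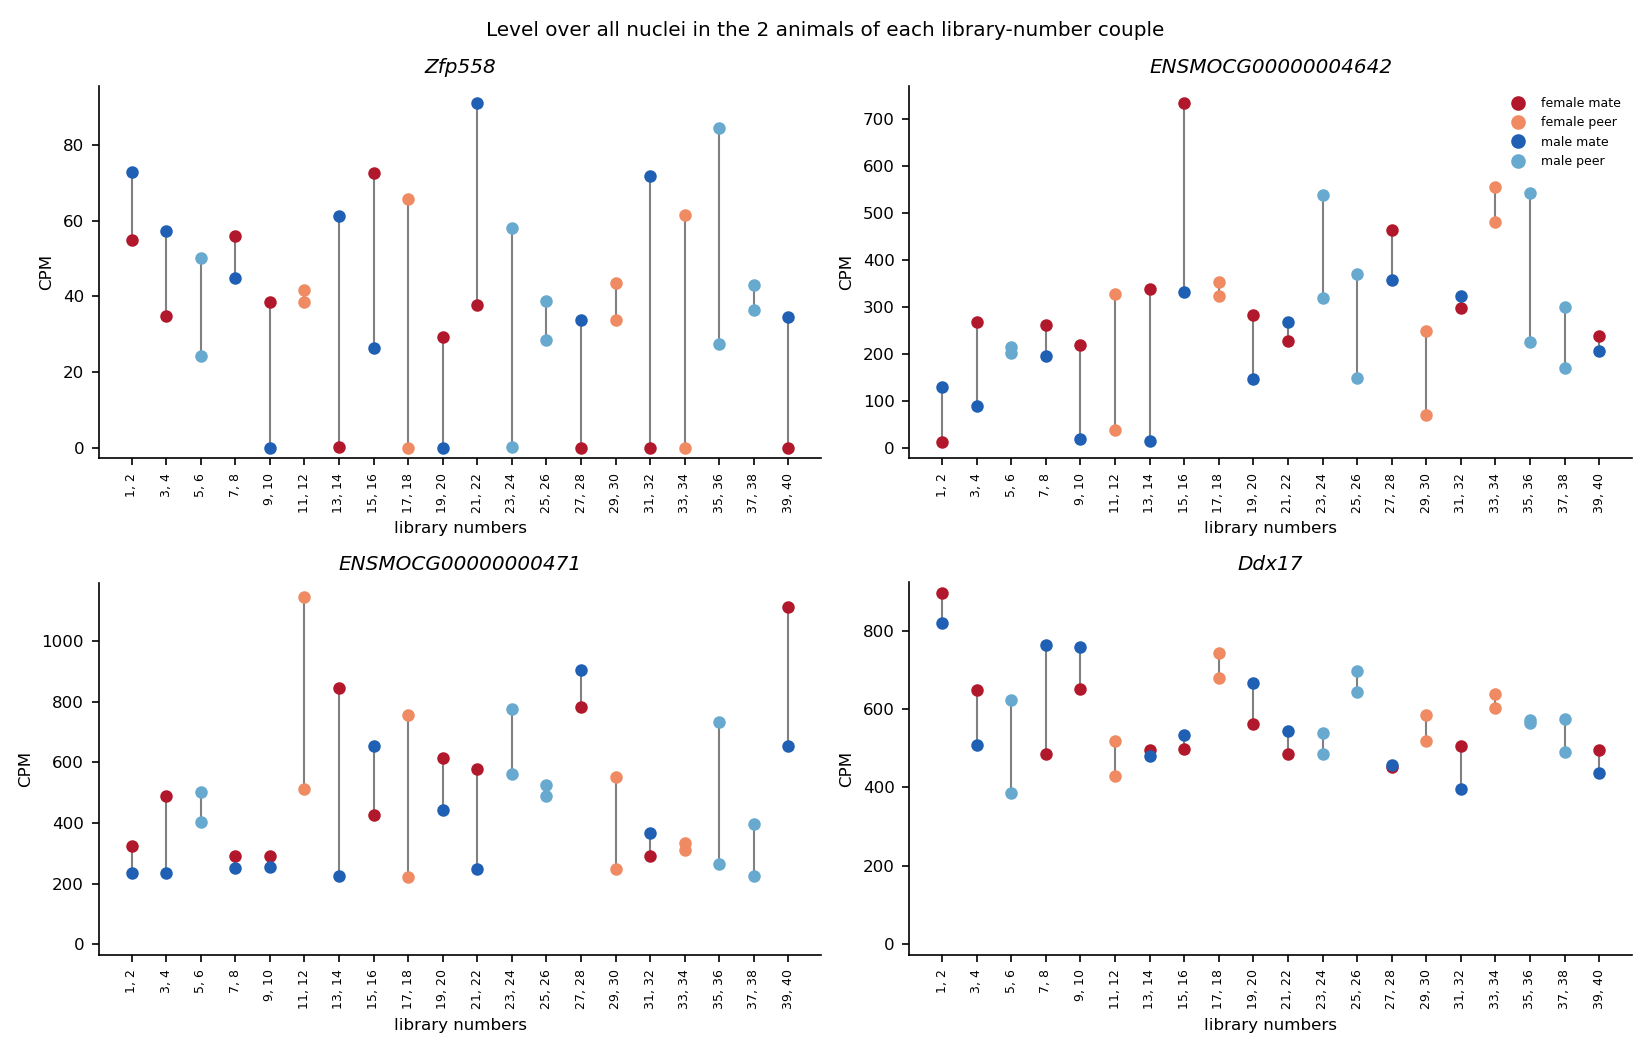
The CPM over all nuclei (vertical axis, from 0) is shown for 4 genes in the 2 animals of each couple, joined by a line and placed by library numbers (horizontal axis), with points coloured by group. Zfp558 has 9 couples with 1 animal near 0, and the lines of Ddx17 are short, with a median of 1.12-fold.

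Within 12 classes the couple test called 5 of 86 combinations of member and class with edgeR (0.684% of all combinations passed), and these calls rested on the test used. Unadjusted, edgeR gave 38 of 86 a p under 0.05, against 12.1% of all combinations. The 5 combinations called by edgeR included Ddx17 in cholinergic interneurons (adjusted p = 0.00851) and eccentric medium spiny neurons (0.0338). The rest of the 5 were ENSMOCG00000000471 in oligodendrocyte precursors (0.000828) and cholinergic interneurons (0.00575), and ENSMOCG00000019475 in immature neurons (0.0412). Of all genes tested in a class, 2.27% passed in the cholinergic class, 1.15% in the eccentric class, 1.25% in precursors and 0.243% in immature neurons. edgeR draws each gene's spread toward that of genes of like level, with a weight of 16.0 degrees of freedom in the eccentric class, 20.0 in the cholinergic class, 43.6 in precursors and 47.9 in immature neurons. The couples themselves gave 19 where all 20 couples entered. They gave fewer in precursors and immature neurons, where only 39 and 38 animals had enough nuclei. Over all nuclei the biological coefficient of variation was 0.464 for ENSMOCG00000000471, 0.564 for ENSMOCG00000019475 and 0.183 for Ddx17, where the median of all genes was 0.179. These values come from the fit of the 4 groups, not from the couple fits. The part of the weighting in the 5 calls was not tested. The permutation test, which uses each gene's own spread, called 0 of 86 combinations (0.0953% of all combinations), with 7 of 86 under 0.05 unadjusted against 11.2% of all combinations. Of those 7, 6 belonged to Ddx17, whose intraclass correlation was positive in all 12 classes, from 0.13 to 0.68, with the highest in cholinergic interneurons (unadjusted p = 0.000230, adjusted p = 0.113). The classes share the same libraries, and the rule chose genes alike across classes, so the classes are not separate evidence. An edgeR fit with a robust spread called 3 of 86: Ddx17 in the same classes and Rsrp1 in cholinergic interneurons (adjusted p = 0.0274), where 1.01% of all combinations passed.

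Library measures were compared with the 8 genes over 40 animals, as Spearman's rho with a two-sided permutation test and Benjamini-Hochberg adjustment over 13705 genes for each of 4 measures. Of the 32 combinations, 3 were called. ENSMOCG00000000471 was higher where the mitochondrial share of UMIs was higher (rho 0.45, p = 0.00421, adjusted p = 0.0250), where 22.6% of all genes were related to that share, 10.4% being higher with it. Pearson's r was 0.37 (p = 0.0164, adjusted p = 0.0567) and 0.27 without the 2 animals farthest from the median share. ENSMOCG00000019475 and Rsrp1 were lower where a larger share of nuclei fell in the named neuronal classes, a measure related to 24.5% of all genes, 17.3% being lower with it. Spearman's coefficient was -0.43 (p = 0.00634, adjusted p = 0.0309) for ENSMOCG00000019475, and r was -0.36 (p = 0.0250, adjusted p = 0.0830), or -0.25 without the 2 farthest animals. Spearman's coefficient was -0.46 (p = 0.00291, adjusted p = 0.0177) for Rsrp1, and r was -0.39 (p = 0.0124, adjusted p = 0.0506), or -0.50 without them.

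Within neurons alone the 3 relations had nearly the same rho, 0.42, -0.42 and -0.43, but lay just above the threshold, with adjusted p of 0.0530, 0.0654 and 0.0569 by the same permutation test, where 13.0% of all genes were related to mitochondrial share and 9.54% to the share of neurons. Within glia alone rho was 0.25 (adjusted p = 0.457) for ENSMOCG00000000471, -0.32 (0.230) for ENSMOCG00000019475 and -0.53 (0.0192) for Rsrp1 by permutation, where 5.47% of all genes were related to the share of neurons and 0.992% to mitochondrial share. For Ddx17 and mitochondrial share, r was -0.43 (adjusted p = 0.0271) and rho -0.35 (adjusted p = 0.0873) by permutation. By r, 3806 of 13705 genes were related to that share. In neurons r was -0.33 (adjusted p = 0.148) and in glia -0.34 (adjusted p = 0.315) by permutation, so neither passed. There, 2130 genes in neurons and 113 in glia were related to mitochondrial share by r. Depth per nucleus was related to 0 of 8 members and 0% of all genes by rho (37 genes by r). In glia alone, Ddx17 was higher where depth was higher by r (0.57, adjusted p = 0.0132 by permutation, 0.44 without the 2 farthest animals), where 2166 of 13705 genes were related to depth there by r, while rho was 0.42 (adjusted p = 0.260). The number of nuclei was related to 0 of 8 members and 5.99% of all genes. Of the genes related to the share of neurons, 29.4% were higher with it, or 46.9% when library sizes were adjusted by TMM.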

How the data were processed

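Per the labels' protocols, nuclei were freed from punches by douncing, cleaned on an iodixanol gradient and run on 10X Genomics. The authors deposited UMI counts per gene and barcode, made with Cell Ranger 3.1.0 per the submitters' processing notes and the file headers. The genome build, annotation and cell-calling rule are not given in the sources used here. Barcodes under 500 UMIs (6375) or over 5% mitochondrial UMIs (2148) and 8004 doublet calls (4.30%) were removed, and the rest clustered (Leiden, leidenalg 0.10.2). Counts were summed per animal, over all nuclei and over classes with 20 or more nuclei, and tested with edgeR 4.0.16 (TMM, filterByExpr). DESeq2 1.42.0, permutation tests and other filters were alternatives. A robust fit, the permutation of couples and the fits to neurons or glia alone were chosen after seeing the data. The scripts were tested on simulated data. Members and lists were chosen with earlier results of these data known. All members, the 3 genes most like each and up to 3 listed genes per comparison were eligible for naming. Nothing says whether animals shared parents, so p-values measure the spread between these animals. Animal numbers follow the order of deposit within a group.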

Additional observations from a re-analysis of the deposited data

How the results depend on the processing

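Over all nuclei, the count of members called for pairing, sex and their interaction stayed at 0 under every alternative run, and so did the count within classes for pairing and sex. No paired analysis was possible for pairing because both animals of a couple had the same pairing type. The pairing test took all animals as separate, so its SEs leave out any likeness within couples. With the library-number couple as a block, where mate couples alone carry the sex difference, the log2 difference changed sign for ENSMOCG00000019475 (-0.14), Rsrp1 (-0.07) and Ddx17 (-0.03). It grew for Zfp558 (-0.38 to -1.03), ENSMOCG00000004642 (0.33 to 0.79) and ENSMOCG00000000471 (0.25 to 0.46), and shrank for ENSMOCG00000020926 (0.12 to 0.03) and Tmem141 (0.26 to 0.09). Adjusted p in this block lay between 0.884 and 0.995 for the 8 genes, and the cause was not tested. Genes called in all nuclei by sex numbered 5 with DESeq2 against 3. Without the filter on low counts, 13 combinations of gene and class were called for pairing against 0, and 35 for sex against 19.

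For couples over all nuclei, DESeq2 called 1 member and 2968 genes, against 0 members and 286 of 13705 genes in the main edgeR fit. The fit without the filter, over 18047 genes, called 1 member, Ddx17, which the main edgeR F-test left at an adjusted p of 0.0544. The 286 became 153 with nuclei of at least 1000 UMIs and 187 without libraries 3 and 4, the couple of the shallowest library. Within classes, 5 member calls and 581 gene calls became 76 and 10637 without the filter, where edgeR drew every gene's spread fully to the common trend in 12 of 12 classes. They became 3 member calls in the robust fit, and 0 member calls and 81 gene calls in the permutation test.

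Of relations with library measures, 3 member calls became 0 in neurons, where rho stayed near its value over all nuclei (0.42, -0.42 and -0.43 against 0.45, -0.43 and -0.46), and 1 in glia. In neurons 1788 genes followed mitochondrial share, 533 the number of nuclei and 1308 the share of neurons, and in glia 136, 368 and 749, with 3 for depth. Some relations changed sign. With TMM they were Zfp558 with share of neurons (0.00), ENSMOCG00000004642 with number of nuclei (0.01) and Rsrp1 with mitochondrial share (0.00). Without male mate 2 they were 0.00 for ENSMOCG00000004642 with number of nuclei, 0.02 for ENSMOCG00000000471 with share of neurons and 0.05 for Rsrp1 with mitochondrial share. In neurons, ENSMOCG00000000471 with share of neurons (0.00) and Rsrp1 with mitochondrial share (0.04) did so. In glia it was ENSMOCG00000004642 with number of nuclei (0.04) and, with share of neurons, ENSMOCG00000020926 (0.14, from -0.14 over all nuclei), ENSMOCG00000000471 (0.18, from -0.03) and Tmem141 (0.01). The 20 low values of member and animal became 13 at 5% and 62 at 25% of the highest animal, with 9 for Zfp558 throughout. In vascular, microglial and immature classes, depth left few animals readable for genes of low level.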

Other observations

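Some genes ran opposite to the members across the 40 animals. They were named after their values were seen, as descriptions over points that share a library. The lowest rho with Zfp558 was that of Pgr, the progesterone receptor, at -0.68 (-0.67 in neurons and -0.40 in glia), over a range of 15.5 to 38.7 CPM. For Ddx17 it was Ppm1g, a protein phosphatase, at -0.81, over 132 to 201 CPM. For ENSMOCG00000019475 it was Tha1 at -0.80, which was highest in the shallow library of male mate 2, at 174 CPM. ENSMOCG00000000471 was opposed by Hsd17b4, a peroxisomal enzyme of fatty acid breakdown, at -0.70.

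A list of 18 stress, clock and early response genes, of which 14 were tested, had 0 genes above 0.5 in rho with each of the 8 members, where 0.168% (Zfp558) to 7.28% (Ddx17) of all genes exceeded it, so the count does not set the list apart. The highest values were those of Ciart with ENSMOCG00000019475 (0.43) and with Zfp558 (0.36), and of Arntl with ENSMOCG00000020926 (0.36). The lowest were those of Clock with ENSMOCG00000019475 (-0.48), Per2 with ENSMOCG00000004642 (-0.43) and Clock with Rsrp1 (-0.37), and 0 lay under -0.5. Of the 18 splicing genes that were lower where the mitochondrial share was higher, Clk3 (rho -0.68) and Srsf1 (-0.64) were among those with the lowest p, each with an adjusted permutation p of 0.000588.

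The genes beside 2 members were looked up by order in the RefSeq annotation of the assembly MicOch1.0, which holds Rsrp1 and Ddx17 by name. Of the 4 tested genes beside Rsrp1, rho with it was 0.29 for Tmem50a, 0.28 for Clic4, -0.21 for Syf2 and -0.24 for Maco1. Of the 3 beside Ddx17, it was 0.11 for Cby1, 0.07 for Kdelr3 and -0.25 for Kcnj4.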
